A study of Mus musculus with 10 samples.

Results

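Neuroblasts are the migrating, immature neurons that neural stem cells (NSCs) of the adult subependymal zone (SEZ) produce for the olfactory bulb, and 8 genes often used to recognise them were looked for by symbol in the deposited matrix: Dcx, Dlx1, Dlx2, Dlx5, Tubb3, Stmn1, Cd24a and Dlx6os1. Of these 8 genes, 2 were measured, Cd24a and Stmn1, among 15899 genes in all. The other 6 are not analysed here, so that the description below rests on Cd24a and Stmn1 and neither marks neuroblasts alone. Cd24a encodes a small glycoprotein held at the cell surface by a lipid anchor, which is used to sort neuroblasts and is also present on ependymal cells. Stmn1 encodes stathmin, a cytosolic protein that binds tubulin dimers and destabilises microtubules, and it is abundant in dividing progenitors as well as in young neurons.

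RIP-seq measured the RNA that an antibody against FLAG pulled down from neurospheres, which are floating aggregates of NSCs and their progeny grown from the SEZ of 10 week-old mice with EGF and bFGF. FLAG cultures came from homozygous knock-in mice (Mex3aFLAG/FLAG), in which the endogenous RNA-binding protein MEX3A carries a 3X-FLAG peptide at its C-terminus, and WT cultures came from mice of the same background without the tag and give the nonspecific background of the IP. The IP was done after crosslinking with formaldehyde in 2 libraries of FLAG and 2 of WT, and without crosslinking (native conditions) in 3 libraries of FLAG and 3 of WT. The methods call them biological replicates, and the number of mice behind each culture is not given in the sources used here. No input RNA was analysed here, so a FLAG over WT difference joins binding to whatever differed in RNA level from culture to culture, and in a bulk sample fewer cells of a kind and less RNA per cell cannot be told apart.

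MEX3A belongs to the MEX-3 family of proteins with KH domains, which bind the 3' UTR of mRNAs and control their translation and stability. The family takes its name from a protein of C. elegans, whose binding sequence, the MEX-3 recognition element (MRE), consists of 4 bases, a spacer of 0 to 8 bases and 4 further bases. The study writes the end of the element in 2 ways, with TA or with AT as the last bases, and both forms were searched on the transcript strand of the 3' UTR (GENCODE M21, GRCm38). The matches are shown because a 3' UTR match to the element is what the study used to describe bound RNAs. Capitals mark the bases of the element on both sides of the spacer.

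Cd24a, TA form, chr10:43582970-43582990, plus strand: tctgctGGAGtTTTAcatccc
Cd24a, TA form, chr10:43583655-43583681, plus strand: aaattaTGAGtcttaatTCTAcaggca
Cd24a, AT form, chr10:43583864-43583883, plus strand: ttttagATAGTTATtggtcc
Cd24a, AT form, chr10:43584027-43584046, plus strand: ataaccAGAGTCATtttctc
Stmn1, TA form, chr4:134473487-134473506, plus strand: tgacagATAGTCTAgaagcc
Stmn1, TA form, chr4:134473504-134473528, plus strand: gccgatGTAGgaccgTATAggtaga
Stmn1, TA form, chr4:134473532-134473555, plus strand: agaccgTGAGatgtTTTAggggct

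Cd24a (ENSMUSG00000047139) lies on the plus strand at chr10:43578284-43584265, and its longest transcript of 1816 nt has a 3' UTR of 1500 nt. This 3' UTR held 2 matches to the TA form and 8 to the AT form, of which the 2 without a spacer are printed above. Stmn1 (ENSMUSG00000028832) lies on the plus strand at chr4:134468320-134473843, and its longest transcript of 1060 nt has a 3' UTR of 440 nt. It held 3 matches to the TA form within a short stretch and 0 to the AT form. Per kilobase of 3' UTR, Cd24a had 1.33 TA matches and 5.33 AT matches, and Stmn1 had 6.82 TA matches. Over all 12177 coding genes with a 3' UTR the densities were 2.68 TA and 2.52 AT matches per kilobase, and 79.1% and 79.3% of these 3' UTRs held at least 1 match. Among 3' UTRs between 0.8 and 1.25 times as long as that of Cd24a, 92.3% of 2155 held a TA match and 91.0% an AT match, and for the length of Stmn1 the shares were 49.7% and 55.1% of 996. A match is a description of letters, and matches that overlap, such as the pair of AT starts 4 bases apart in Cd24a, were counted once for each start.

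The deposited values are on a log2 scale, with nearly the same distribution in each library. The depth of the libraries is unknown. FLAG native replicates 1 and 3 stood apart, with 329 and 178 genes tied at the lowest value of the library against at most 3 genes in each other library. For Stmn1 these libraries held 143 and 121 distinct values below that of the gene, against 166 to 416 in the others, and for Cd24a they held 548 and 1007 against 332 to 1127, so that the measurement of Stmn1 was coarser there. The tagged gene was looked at first as a check of the labels. Mex3a had log2 values of 3.92 and 4.16 in the FLAG crosslinked libraries against 2.75 and 3.03 in WT, and of 5.95, 4.03 and 6.10 in the FLAG native libraries against 3.33, 3.52 and 2.89 in WT. Within each protocol all FLAG values of Mex3a exceeded all WT values, in the direction of the labels. As for the kind of cell, 9 of 11 NSC and astrocyte markers were in the matrix, with summed log2 levels between 10.96 and 11.45 in all libraries, against 4 of 8 markers of mature neurons (3.85 to 5.54), 4 of 6 of endothelial cells (3.31 to 4.72), 2 of 8 of oligodendrocytes (4.51 to 5.48), 3 of 8 of microglia (4.85 to 5.19) and 2 of 5 of ependymal cells (0.67 to 3.20). The 25 measured genes of the other neuroblast program list, described below, summed to between 11.99 and 12.30. The sums were not adjusted for the number or length of the genes in a list, so they do not rank the kinds of cell.

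Cd24a had a higher mean in FLAG than in WT libraries of each protocol, with an overlap of single libraries in native conditions. In the crosslinked libraries its log2 values were 3.52 and 3.42 in FLAG and 2.35 and 2.34 in WT. In the native libraries they were 5.36, 3.89 and 5.85 in FLAG and 4.21, 3.62 and 3.30 in WT. The crosslinked groups did not overlap, whereas in the native libraries FLAG replicate 2 (3.89) lay below WT replicate 1 (4.21). The order of the group means was FLAG native (5.03 ± 1.02, SD, n = 3), WT native (3.71 ± 0.46, n = 3), FLAG crosslinked (3.47 ± 0.08, n = 2) and WT crosslinked (2.35 ± 0.01, n = 2), and of these neighbours only FLAG and WT crosslinked had separate values. Over all libraries the value of Cd24a stood above that of between 41.1% and 88.5% of the genes of its library.

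Stmn1 had similar values in FLAG and WT. In the crosslinked libraries its log2 values were 2.17 and 2.00 in FLAG and 1.95 and 2.14 in WT. In the native libraries they were 3.17, 2.12 and 2.54 in FLAG and 2.65, 2.59 and 2.35 in WT. FLAG native replicates 1 and 2 were the highest and the lowest of the native libraries, with the 3 WT libraries between them, so that the groups overlapped in both protocols. The group means were 2.61 ± 0.53 (SD, n = 3) in FLAG native, 2.53 ± 0.16 (n = 3) in WT native, 2.08 ± 0.12 (n = 2) in FLAG crosslinked and 2.04 ± 0.13 (n = 2) in WT crosslinked libraries. The value of Stmn1 stood above that of between 34.4% and 54.5% of the genes of its library.

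**Figure D1:**
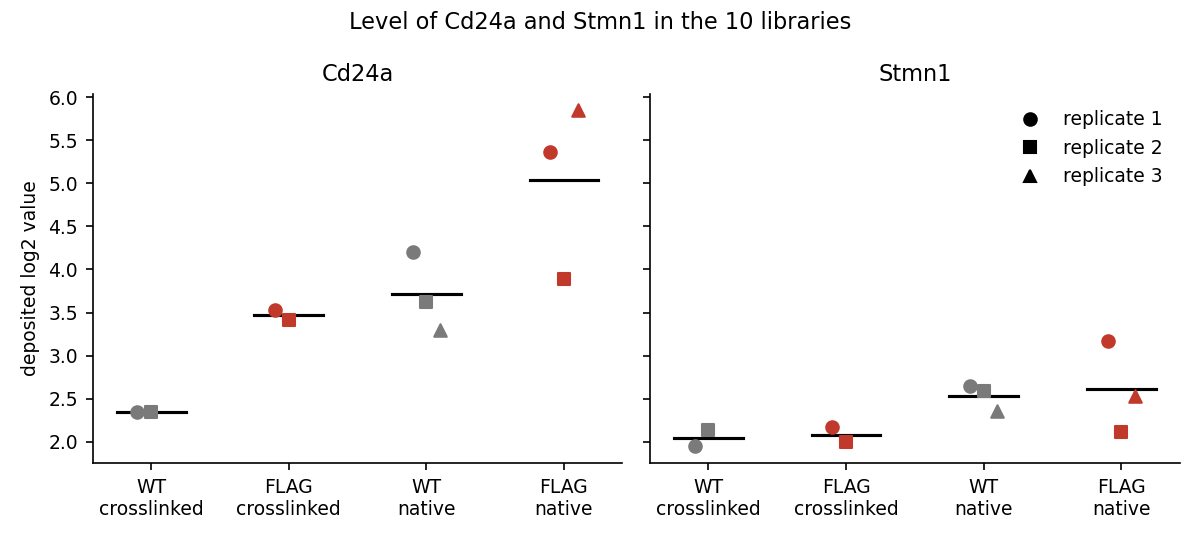
Deposited log2 value (y axis) of Cd24a and Stmn1 in each of the 10 libraries, by group (x axis), where the points are libraries, the marker gives the replicate number and the black line is the group mean. Cd24a is higher in FLAG than in WT crosslinked libraries without overlap (3.42 and 3.52 against 2.34 and 2.35), whereas the FLAG and WT libraries of Stmn1 overlap in both protocols.

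FLAG and WT were compared with limma on the log2 values of all 15899 genes, and a gene was called at a Benjamini-Hochberg adjusted p under 0.05 and a log2 fold change over 0.58 in size, which are the thresholds of the study. In native conditions Cd24a was 2.50-fold higher in FLAG (log2 fold change 1.32, SE 0.47, 95% interval 0.26 to 2.39, limma adjusted p = 0.264). In crosslinked conditions it was 2.18-fold higher (log2 fold change 1.12, SE 0.10, interval 0.85 to 1.39 from the spread of these 4 libraries alone, limma adjusted p = 0.315). Over the 10 libraries, fitted with a term for the protocol, it was 2.37-fold higher (log2 fold change 1.24, SE 0.32, interval 0.53 to 1.96, limma adjusted p = 0.103). None of these 3 differences was called. Mex3a, the tagged gene, was not called either, with log2 fold changes of 2.11, 1.15 and 1.73 (limma adjusted p = 0.201, 0.340 and 0.0789). A larger log2 fold change than that of Cd24a was found for 3.10% of the genes in native conditions, 1.68% in crosslinked conditions and 1.81% over all libraries.

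Single markers of other cells differed between FLAG and WT alongside Cd24a. Of the 9 measured NSC and astrocyte markers 0 were called over all libraries, and 5 were higher in FLAG and 0 lower at an unadjusted limma p under 0.05 with a log2 fold change over 0.58 in size, the rule that Cd24a and 7.24% of all genes passed. Their median log2 fold change was 0.79, and 2 of them, the stem cell factor gene Sox2 (0.98, limma adjusted p = 0.0865) and the astrocyte water channel gene Aqp4 (1.66, limma adjusted p = 0.129), lay above WT without overlap in both protocols. The summed level of this list overlapped between FLAG and WT, but the highest of its genes is the growth factor receptor gene Egfr, whose mean log2 value was 10.46 and whose log2 fold change was -0.33. Of the 4 mature neuron markers 1 was called lower in FLAG, against 0.233% of all genes, which was Rbfox3, the gene of the neuronal nuclear antigen NeuN (log2 fold change -1.31, limma adjusted p = 0.0127), and the others had values from -0.64 to -0.52 that did not pass. The sum of these 4 markers, of which Rbfox3 has the highest mean log2 value (3.87), was lower in all FLAG libraries, from 3.85 to 4.87 with crosslinking and from 3.91 to 4.53 in native conditions, than in WT (5.11 to 5.29 and 5.18 to 5.54). Of the 4 endothelial markers 1 was called higher, against 0.264% of all genes, which was the VEGF receptor gene Flt1 (2.23, limma adjusted p = 0.0468), whereas the others had values from -1.09 to -0.58. The sum of all 4 endothelial markers, of which Flt1 has the highest mean log2 value (2.73), was higher in all FLAG libraries, from 4.32 to 4.46 and from 3.93 to 4.72, than in WT (3.31 to 3.82 and 3.43 to 3.55). The endothelial marker Pecam1 (-0.58, limma adjusted p = 0.196) lay below WT without overlap in both protocols. The sums of the oligodendrocyte and microglia markers overlapped in both protocols, with 0 called and medians of 0.09 and 0.03. Sox2 and Aqp4 are among the transcripts that the study reports as bound by MEX3A. The part of binding in their differences was not tested. The part of the marker differences in that of Cd24a was not tested either.

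The corresponding differences of Stmn1 were close to 0. In native conditions its FLAG over WT log2 fold change was 0.08 (SE 0.31, 95% interval -0.64 to 0.79, limma adjusted p = 0.903). It was 0.04 in crosslinked conditions (SE 0.14, interval -0.34 to 0.42, limma adjusted p = 0.964) and 0.06 over all libraries (SE 0.19, interval -0.37 to 0.49, limma adjusted p = 0.856). The interval of the native libraries includes changes of 0.58 in either direction. Those of the crosslinked libraries and of all libraries do not, but these limits were not stable. With crosslinking the interval was -0.69 to 0.77 in 1 fit of the 4 groups, it reached -0.65 without FLAG replicate 1, 0.73 without FLAG replicate 2 and 0.62 without WT replicate 2, and its upper end was 0.59 with the replicate block and the GC and length correction. Over all libraries the upper end was 0.59 without FLAG crosslinked replicate 2, WT crosslinked replicate 2 or FLAG native replicate 2. Part of the Stmn1 signal is uncertain, since Gm11223 holds 30.5% of all stretches of 75 nt in its longest transcript and a miRNA gene, Gm23634, overlaps it, and how the authors' counting treated reads with several matches is not given in the sources used here. For Cd24a 1.55% of such stretches are shared, with Gm6212.

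Thus 0 of the 2 members were called higher in FLAG in any of the 3 comparisons. Among all genes, 0% were called higher in native conditions, 0% in crosslinked conditions and 0.264% over all libraries, and 0.107%, 0% and 0.233% were called lower. At an unadjusted limma p under 0.05 with a log2 fold change over 0.58, 1 of the 2 members, Cd24a, was higher in each comparison, against 7.77%, 2.78% and 7.24% of all genes. In native conditions this was lost without FLAG replicate 1 or 3 or without WT replicate 2 or 3, when the log2 fold change was between 0.92 and 1.28 with 95% intervals that held 0. In crosslinked conditions it was lost in 1 fit of the 4 groups, which shares the spread of the native libraries and gave an SE of 0.53 and an interval of -0.06 to 2.31. The median log2 fold change of the 2 members was 0.65 over all libraries, against -0.03 for all genes. Cd24a was over 0.58 in both protocols, as were 4.16% of all genes. FLAG lay above WT without overlap in the crosslinked libraries for Cd24a and for 19.1% of all genes.

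**Figure D2:**
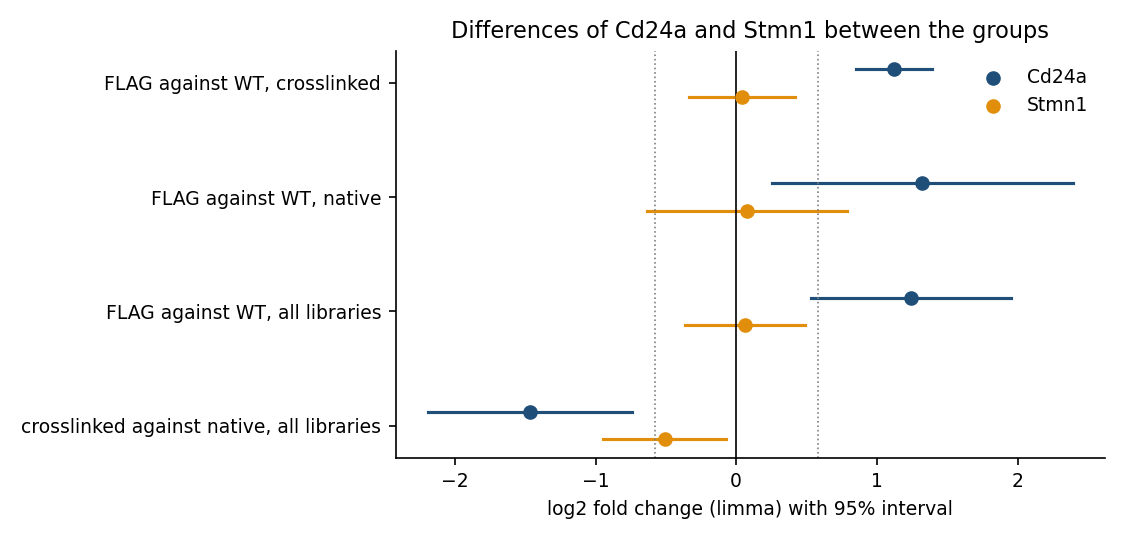
Log2 fold change from limma (x axis) of Cd24a and Stmn1 for FLAG over WT in each protocol and over all libraries, and for crosslinked over native libraries, where the points are estimates and the bars 95% intervals. The dotted lines mark a log2 fold change of 0.58 in either direction, and in these fits the intervals of Cd24a lie to the right of 0 for FLAG over WT and to the left of 0 for crosslinked over native.

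The native difference of Cd24a rested on FLAG replicates 1 and 3, the libraries with the many tied values. Relative to the WT mean of the protocol, Cd24a was higher by 1.65 and 2.14 on the log2 scale in these libraries and by 0.18 in FLAG native replicate 2, and by 1.18 and 1.07 in the crosslinked FLAG libraries. Without FLAG native replicates 1 and 3 the log2 fold change was 0.18 in native conditions (limma adjusted p = 1.00), with 1 FLAG library left whose spread was taken from WT, and 0.72 over all libraries (limma adjusted p = 0.360). Without FLAG native replicate 2 it was 1.89 in native conditions (limma adjusted p = 0.00785) and 1.54 over all libraries (limma adjusted p = 0.0140), and both then passed the thresholds. In these fits 1450 genes were called higher and 1710 lower in native conditions, against 0 and 17 with that library, and 516 and 186 over all libraries, against 42 and 37. The same libraries ordered Mex3a, which was highest in FLAG native replicates 1 and 3. For Stmn1 the deviations from the WT mean were 0.64, -0.41 and 0.01 in the native and 0.13 and -0.04 in the crosslinked FLAG libraries, and without FLAG native replicates 1 and 3 its log2 fold change was -0.41 in native conditions.

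**Figure D3:**
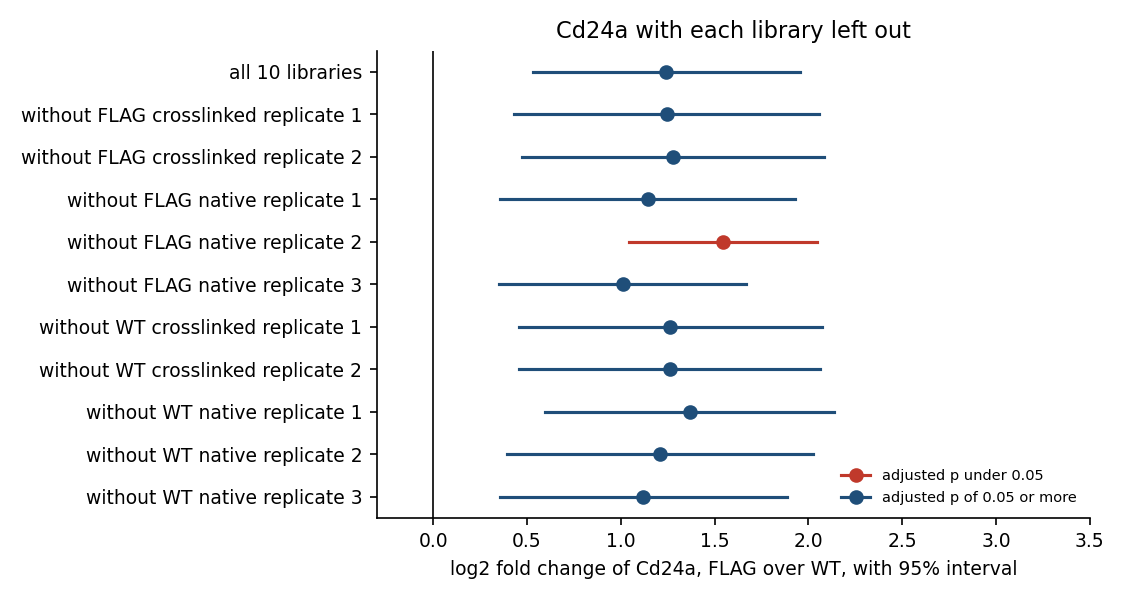
Log2 fold change of Cd24a in FLAG over WT (x axis) over all 10 libraries and with each library left out in turn (rows), where the points are limma estimates and the bars 95% intervals. The estimates lie between 1.01 and 1.54, and only without FLAG native replicate 2 is the adjusted p under 0.05 (red).

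Both members were lower in crosslinked than in native libraries, and for Cd24a this was called. Cd24a fell by 1.46 on the log2 scale with crosslinking when the genotype was a covariate (SE 0.33, 95% interval -2.19 to -0.74, limma adjusted p = 0.0322), a 2.76-fold higher level in native libraries. Every native library lay above every crosslinked library of the same genotype, by 1.36 on the log2 scale between the means in WT and by 1.56 in FLAG, and this order held in both genotypes for 6.92% of all genes. For Stmn1 the log2 difference was -0.51 (SE 0.20, interval -0.94 to -0.07, limma adjusted p = 0.179), with native means higher by 0.49 in WT and by 0.52 in FLAG, and it was not called. All WT native libraries of Stmn1 lay above the WT crosslinked libraries, as for 12.5% of all genes, whereas its FLAG libraries overlapped. Of the 2 members 1 was called lower in crosslinked libraries, against 2.94% of all genes.

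The call of Cd24a between the protocols was not stable. It ended without FLAG native replicate 1 or 3, without WT native replicate 1, or without any one of the 4 crosslinked libraries, when the log2 difference was between -1.49 and -1.27, and with the replicate number as a block (log2 difference -1.36, limma adjusted p = 0.106). Libraries of the 2 protocols with the same genotype and number deviated together from their group means (correlations over genes of 0.15 to 0.39), and whether they came from the same culture is not given in the sources used here. Libraries of other numbers also correlated, with 0.23 for WT crosslinked 1 and WT native 3. Between genotypes, FLAG native 2 and WT native 3 reached 0.40. With 2 crosslinked libraries per group the deviations mirror each other, so these values cannot decide whether a culture was shared. With genotype and number together as a random block the difference was -1.43 (limma adjusted p = 0.0116). The FLAG effect on Cd24a did not differ between the protocols beyond its error, with a native minus crosslinked difference of 0.20 (SE 0.69, 95% interval -1.33 to 1.73, limma adjusted p = 0.976). For Stmn1 this difference was 0.04 (SE 0.42, interval -0.90 to 0.98, limma adjusted p = 0.992). Of the ependymal markers, which are named here because Cd24a is also found on ependymal cells, 2 of 5 were measured, and their summed log2 level ranged from 0.67 to 1.10 in WT crosslinked, from 0.99 to 1.10 in FLAG crosslinked, from 1.34 to 2.02 in WT native and from 1.42 to 3.20 in FLAG native libraries. Foxj1, the master regulator of motile cilia, had a log2 difference of -1.03 between crosslinked and native libraries (limma adjusted p = 0.176) and Rarres2, which encodes chemerin, of -0.92 (limma adjusted p = 0.231). Of the 9 measured NSC and astrocyte markers 1 was called lower in crosslinked libraries, against 2.94% of all genes. It was Fabp7 (-1.16, limma adjusted p = 0.0377). The median of these 9 was -0.17, with 3 positive values. Their sum was higher in native WT (11.32 to 11.42 against 10.96 to 11.16) and FLAG libraries (11.14 to 11.45 against 10.98 to 11.04). The part of these markers in the difference of Cd24a was not tested.

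Within a library, Cd24a was compared with Stmn1 to see how the members vary against each other. The log2 value of Cd24a minus that of Stmn1 was 1.36 and 1.42 in the FLAG crosslinked and 0.40 and 0.20 in the WT crosslinked libraries. It was 2.20, 1.77 and 3.31 in the FLAG native and 1.56, 1.03 and 0.95 in the WT native libraries. In FLAG native replicate 2 the deviation from the WT mean was 0.18 for Cd24a and -0.41 for Stmn1. In the difference of the 2 members all FLAG libraries exceeded all WT libraries within each protocol, that library included. When each other gene was set against Stmn1 in the same way, 5.29% of 15898 genes had this order. Per kilobase of the longest transcript the log2 level of Cd24a ranged from 1.48 to 4.99 and that of Stmn1 from 1.86 to 3.08, and Stmn1 was the higher in the 2 WT crosslinked libraries only. Over the 10 libraries the log2 values of Cd24a and Stmn1 had a Pearson r of 0.73 and a Spearman rho of 0.67, and their deviations from the group means an r of 0.65, which describes libraries that differ in protocol and in the number of tied values.

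**Figure D4:**
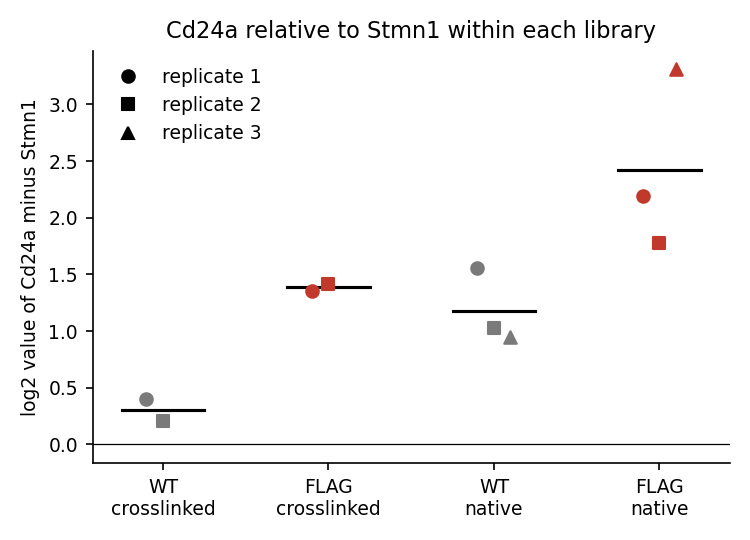
Log2 value of Cd24a minus that of Stmn1 in the same library (y axis) by group (x axis), where the points are libraries, the marker gives the replicate number and the black line is the group mean. The FLAG libraries lie above the WT libraries of the same protocol, from 1.36 to 1.42 against 0.20 to 0.40 with crosslinking and from 1.77 to 3.31 against 0.95 to 1.56 in native conditions.

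The genes whose log2 values followed the members most closely over the 10 libraries were Swi5, a factor of recombination repair, and the lincRNA Gm26527 for Cd24a (Pearson r of 0.986 and 0.982). For Stmn1 they were Txndc5, a protein disulfide isomerase, and Bysl, a factor of ribosome assembly (r of 0.981 and 0.974). Such values were common, since 471 genes had an r over 0.9 with Cd24a and 69 with Stmn1. Over all libraries the FLAG over WT log2 fold change was 1.25 for Gm26527, close to that of Cd24a, and 0.47 for Swi5.

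Other genes of the neuroblast program were described from 3 lists, of which 35 of 49 genes were measured. Over all libraries 0 of these 35 genes were called in FLAG against WT by limma, with 7 higher and 2 lower at an unadjusted p under 0.05 and a log2 fold change over 0.58 in size (7.24% and 5.28% of all genes), and their median log2 fold change was 0.20. Of the other Dlx genes, a list of homeodomain factor genes and antisense RNAs of Dlx loci, 1 of 5 was measured. It was the antisense RNA Dlx1as, with a log2 fold change of -0.03 (SE 0.20, limma adjusted p = 0.945). Whether its reads were counted by strand is not given in the sources used here, so they cannot be told from those of Dlx1.

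Of the relatives of Dcx, Stmn1 and Tubb3, 9 of 13 were measured, with a median log2 fold change of 0.48 over all libraries. The other stathmins differed in sign, with 0.61 for Stmn4 (SE 0.29, limma adjusted p = 0.253) and -0.28 for Stmn3 (SE 0.22, limma adjusted p = 0.447). Dclk1, a kinase related to doublecortin, had a log2 fold change of -0.47 (SE 0.21, limma adjusted p = 0.240). The 5 measured beta-tubulins all had positive values, from 0.35 for Tubb6 to 0.93 for Tubb5 (SE 0.26, limma adjusted p = 0.118), and none passed the adjusted threshold. Tubb5 had log2 values of 5.36 and 5.03 in the FLAG and 4.69 and 4.39 in the WT crosslinked libraries, and of 7.25, 5.78 and 6.79 in the FLAG and 5.57, 5.82 and 5.08 in the WT native libraries, so that FLAG native replicate 2 was again the low library. Tubb4b was the only one of the 9 whose FLAG values all exceeded the WT values in both protocols, an order found for 4.84% of all genes. It was close in native conditions, at 2.764 in FLAG replicate 2 against 2.757 in WT replicate 1. Between protocols 3 beta-tubulins were called lower in crosslinked libraries (2.94% of all genes were), with log2 differences of -1.31 for Tubb2b (limma adjusted p = 0.0409), -1.18 for Tubb5 (adjusted p = 0.0330) and -0.88 for Tubb4b (adjusted p = 0.0207). Like that of Cd24a, these calls were not stable. Each was lost without any one of the 4 crosslinked libraries or WT native replicate 1, those of Tubb2b and Tubb5 also without FLAG native replicate 3 or WT native replicate 2, that of Tubb2b also with the filter on a linear mean of at least 10 (limma adjusted p = 0.0573), and all 3 with the replicate number as a block (limma adjusted p of 0.0870, 0.0773 and 0.0893 for Tubb2b, Tubb5 and Tubb4b), also together with the GC and length correction (0.0983, 0.0744 and 0.0908). With genotype and number together as a random block all 3 were called (limma adjusted p of 0.0123, 0.00904 and 0.00598), as they were with the same block as a fixed term (0.0414, 0.0297 and 0.0305). With 1 library left out the log2 differences ranged from -1.51 to -1.07 for Tubb2b, from -1.35 to -1.01 for Tubb5 and from -0.97 to -0.79 for Tubb4b. Beta-tubulin genes are close copies of each other, so that reads may have been split between them.

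Of the other program genes 25 of 31 were measured, with a median log2 fold change of 0.13 over all libraries and values on both sides of 0. Among the highest were those of transcription factors of young neurons, with 1.94 for Sox4 (SE 0.49, limma adjusted p = 0.101) and 1.58 for Sox11 (SE 0.44, limma adjusted p = 0.118). Sox4 had log2 values of 4.97 and 5.25 in the FLAG and 3.76 and 3.98 in the WT crosslinked libraries, and of 7.23, 5.04 and 7.78 in the FLAG and 4.33, 5.03 and 3.47 in the WT native libraries, with FLAG native replicate 2 next to WT native replicate 2.

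Within each protocol all FLAG values exceeded all WT values for Sox4, for Gad1, which encodes a GABA-synthesising enzyme (log2 fold change 0.65, SE 0.17, limma adjusted p = 0.105), and for Pax6, a factor of dopaminergic periglomerular neurons (0.31, SE 0.13, limma adjusted p = 0.212). This order was found for 4.84% of all genes. For Pax6 it was close with crosslinking, at 3.31 in FLAG replicate 1 against 3.29 in WT replicate 1. The reverse order, found for 4.47% of all genes, held for Map2, a dendritic microtubule protein (-0.36, SE 0.08, limma adjusted p = 0.0816), for the transcription factor gene Etv1 (-0.46, SE 0.11, limma adjusted p = 0.0891) and for Erbb4, the neuregulin receptor of migrating neuroblasts (-0.49, SE 0.15, limma adjusted p = 0.138). The lowest values were those of Elavl4, a neuronal RNA-binding protein (-1.52, SE 0.37, limma adjusted p = 0.0929), Tiam2, an activator of Rac (-1.11, SE 0.50, limma adjusted p = 0.235), and St8sia2, a polysialyltransferase that acts on NCAM (-0.57, SE 0.52, limma adjusted p = 0.503). Of these 25 genes 0 were called between the protocols by limma, and 1 was lower in crosslinked libraries at an unadjusted p under 0.05 with a log2 difference over 0.58 in size, against 7.06% of all genes.

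**Figure D5:**
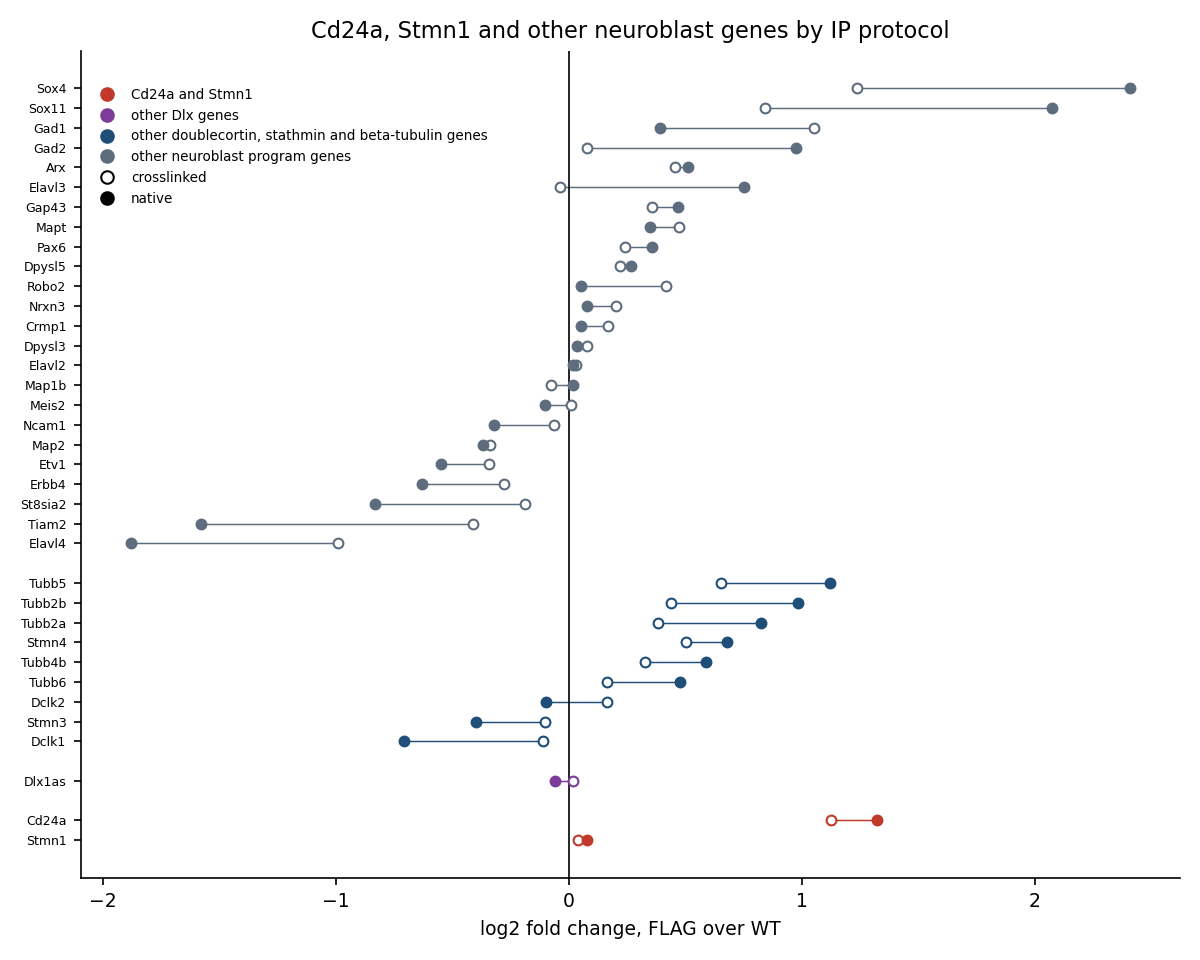
Log2 fold change of FLAG over WT (x axis) in crosslinked (open points) and native libraries (filled points) for Cd24a and Stmn1 and for the measured genes of the 3 other lists but 1 (rows, coloured by list). Cd24a (1.12 and 1.32) lies among the high values, with Sox4 beyond it in both protocols, and Stmn1 (0.04 and 0.08) lies near 0.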

How the data were processed

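RIP-seq of 10 libraries was analysed from the 1 matrix the authors deposited, in which 15899 genes have log2 values. Per the methods and the submitters' processing notes, reads were trimmed (cutadapt, Trimmomatic), mapped to GRCm38 (HISAT2) and counted per gene (featureCounts). Per the methods, the authors normalized the counts with DESeq2, and the notes name limma. The sorted log2 values of the libraries above 0 differed by at most 0.09, as after quantile normalization, a step not named in the methods, and no counts or depth can be had from them.

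The values were used as deposited in limma 3.58.1 (R 4.3.3; lmFit, eBayes with trend), with p-values adjusted over all genes. The p-values measure only the spread between these libraries, and 2 or 3 per group limit the precision. The fits were tested on simulated data. Groups came from the labels. GENCODE M21 on GRCm38 gave annotation and sequences, and 15864 genes were found in it. Figures and searches used Python 3.11.15, pandas 2.3.3, numpy 2.4.6 and matplotlib 3.10.9.

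The members, lists and tests were chosen with earlier results of these data known. The genes named are the members, Mex3a, for each member the 2 genes most like it, and of the lists those called, those without overlap in both protocols and the 3 largest and 3 smallest over all libraries, of which 1 gene is not reported here; Tubb6, Stmn3, Stmn4, Dclk1, Foxj1, Rarres2, Rbfox3, Flt1, Sox2, Aqp4 and Egfr were added after their values were seen. Alternatives changed the scale (a pseudocount of 1), filter (a mean of at least 10 on the linear scale), normalization, weights, moderation, GC content and length (20 bins each), blocks and the libraries included.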

Additional observations from a re-analysis of the deposited data

How the results depend on the processing

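The log2 fold change of Cd24a in FLAG over WT stayed positive under all alternatives, and it passed the thresholds with array weights, at 1.64 in native conditions (limma adjusted p = 0.0195) and 0.97 over all libraries (limma adjusted p = 0.00147). These weights called 1656 genes higher and 1921 lower in native conditions against 0 and 17 without them, and 1105 and 964 over all libraries against 42 and 37. With 1 library left out it ranged from 0.92 to 1.89 in native conditions, from 1.07 to 1.18 in crosslinked conditions and from 1.01 to 1.54 over all libraries, and only the omission of FLAG native replicate 2 brought it past the thresholds, in the native and in the full comparison (1.89 and 1.54). The difference of Cd24a between the protocols ranged from -1.71 to -1.27 with 1 library left out, and its call was lost with the replicate block (-1.36) and with the replicate block and the GC and length correction (-1.40). The native minus crosslinked FLAG effect ranged from -0.21 to 0.77 for Cd24a and from -0.24 to 0.28 for Stmn1.

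Stmn1 ranged from -0.20 to 0.32 in native conditions, from -0.053 to 0.14 in crosslinked conditions and from -0.092 to 0.19 over all libraries with 1 library left out, and without FLAG native replicates 1 and 3, an omission chosen after seeing the data, it was -0.41 and -0.15. It was called in no setting. The causes were not tested. Stmn1 had no value with the filter on the linear mean, and 1 fit of 4 groups was not run for the difference between protocols or the difference of the FLAG effects. The culture blocks, the crossed pairing and the settings tried for the beta-tubulins were also chosen after seeing the data.

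The replicate numbers did not pair FLAG with WT libraries, whose deviations from the group means correlated at -0.27 in crosslinked and at -0.15, -0.43 and -0.17 in native conditions, and the replicate block changed no other call of the members. With the crossed pairing of the crosslinked libraries as a block, 0 genes were called. Same-numbered libraries of the 2 protocols correlated at 0.18 and 0.15 in FLAG and at 0.30 and 0.39 in WT. Of libraries with different numbers, WT crosslinked 1 and WT native 3 correlated at 0.23.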
